A study of Homo sapiens with 9 samples.

Results

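The genes described here encode proteins of the mitochondrial respiratory chain and ATP synthase, the factors that assemble them, and the translocases that bring nuclear-encoded proteins into mitochondria. They were chosen by symbol: names that begin with NDUFA, NDUFB, NDUFC, NDUFS or NDUFV, the names SDHA, SDHB, SDHC, SDHD and CYC1, and names that begin with SDHAF, UQCR, ATP5 or ATPAF, or with COX, TIMM or TOMM followed by a digit. Each gene was represented by the probe set with the highest mean. It was tested where that probe set reached a log2 intensity of 5 on at least 3 of the 9 arrays. The rule matched 67 symbols, of which the pseudogene UQCRBP1 was left out, and 62 of the remaining 66 genes passed the limit, among 12155 tested genes of 14884 named ones. Of these 62, 59 were protein-coding and 3 were noncoding RNAs that carry a member's name (COX10-DT, NDUFA6-DT and NDUFB2-AS1). The 4 that did not pass were COX7B2, COX8C, SDHAF3 and TOMM20L, which reached the limit on 0 arrays and lay between 3.01 and 4.47. TOMM20L was the closest outside the limit, at 4.43 to 4.47, and COX7A1 was just inside it, at 4.53 to 5.11 with 3 arrays at or above 5.

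The named probe sets covered these complexes unevenly. No structural subunit of complex I, no subunit of succinate dehydrogenase and neither the catalytic subunits nor the c-ring of ATP synthase were among them, so NDUFS1, NDUFB8, SDHB, ATP5F1A and ATP5MC1 were not analysed here. What was measured was 6 subunits of complex III, and 15 subunits and 6 assembly factors of complex IV. There were also 2 assembly factors of complex I, 3 of complex II and 5 genes of ATP synthase. By name, 9 were TOMM genes and 13 TIMM genes. Such a name does not make each a translocase subunit, as with the small TIM chaperones. The set is therefore a description of cytochrome c oxidase and protein import more than of the whole chain.

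The cells were EA.hy926, an established line made by fusing umbilical vein endothelial cells with A549 lung carcinoma cells, grown as a single line. There were 3 groups of 3 arrays: 5 nm cells, which had silver nanoparticles of that diameter in the medium for 6 h, 100 nm cells, which had the larger silver nanoparticles for the same 6 h, and control cells, which were not exposed. Both exposures were near the LD50, at mass doses that the labels leave unstated. Whether the 3 replicates of a group were grown as separate cultures is also unstated, and the p-values below cover the variation among these 9 arrays, some or all of which may be technical.

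Oxidative phosphorylation passes electrons through complexes I to IV of the inner membrane. Complexes I, III and IV pump protons, and ATP synthase uses the resulting gradient to make ATP. Most subunits of these complexes are made in the cytosol and enter through the TOM complex of the outer membrane. From there the TIM23 complex takes proteins with a presequence, the small TIM chaperones carry hydrophobic ones to the TIM22 complex, and intermembrane space proteins with paired cysteines are folded by CHCHD4 (MIA40).

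Of 15 endothelial markers 11 had a named probe set, and all 11 reached the limit of 5 on all 9 arrays. Endoglin (ENG) averaged 12.2 on the log2 scale in 5 nm cells, 12.4 in 100 nm cells and 12.4 in control cells, and PECAM1 averaged 9.77, 9.93 and 9.95 in the same order. Of 9 epithelial markers 7 were measured, with the keratin KRT18 at 10.7, 10.8 and 10.8 and the adhesion molecule EPCAM at the limit on 3 arrays only. A second KRT18 probe set read lower, at 7.21, 7.24 and 7.28 in the same order. Of 6 leukocyte markers 2 were measured (CD14, at the limit on 3 arrays, and LYZ), and PTPRC and HBB were not analysed here. The mean of the 11 endothelial markers lay between 8.77 and 9.25 on the 5 nm arrays, between 8.96 and 9.38 on the 100 nm arrays and between 8.96 and 9.38 on the control arrays. The mean of the 7 epithelial markers lay between 6.81 and 7.51 on the 5 nm arrays, between 6.87 and 7.59 on the 100 nm arrays and between 6.91 and 7.63 on the control arrays.

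Within replicate numbers, some markers of both kinds were also lower in 5 nm cells. Of the 11 endothelial markers 4 were lower than control in all 3 numbers (36.4%) and 0 were higher, with a median mean difference of -0.14. They were ENG, NOS3, ICAM2 and the VEGF receptor KDR, which was lower by 0.70, 0.30 and 0.13 (mean -0.38). Of the 7 epithelial markers 2 were lower in all 3 numbers (28.6%) and 0 were higher, with a median of -0.01. They were the keratins KRT7, lower by 0.27, 0.39 and 0.31, and KRT8, lower by 0.49, 0.24 and 0.16. No marker of either list passed in limma without the block (adjusted p = 1 for each) or with it, where the lowest adjusted p was 0.0514, for KRT7. The part of either list in the results was not tested.

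Replicate number set the levels of these genes more than exposure did. Members were higher on arrays of replicate 1 than on those of replicate 2, with a median log2 difference of 0.60 among 5 nm arrays, 0.62 among 100 nm arrays and 0.60 among control arrays. Replicate 1 lay above replicate 3 by a median of 0.74, 0.78 and 0.74 in those groups. Whole arrays shifted with the number too. The median over all probe sets was 5.62, 5.16 and 5.39 on control arrays of replicates 1, 2 and 3. It was 5.64, 5.18 and 5.40 on the 5 nm arrays and 5.63, 5.15 and 5.38 on the 100 nm arrays. How much of the member offsets is array-wide was not tested. Arrays with the same number held exactly equal values for 25.8% to 59.7% of members, and arrays with different numbers for 0% of them. A difference of exactly 0 within a replicate number is therefore common in these values and does not show that a transcript was unaltered. How the equal values arose was not tested. Differences are therefore given within each replicate number, while the tests were run in limma both without the number, which is the main test, and with it as a block. Without the block the offsets between numbers enter the residual spread. Those intervals and p-values therefore measure the offsets as well as the spread of the exposure difference. Group ranges that include all replicate numbers overlap for most members.

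No member passed the test for any difference between groups. In cells exposed to 5 nm silver, 0 of 62 members passed against control cells in limma with Benjamini-Hochberg adjustment over all genes, where 0.074% of all tested genes did (9 of 12155). With the replicate number as a block, 0 members passed again, beside 0.65% of all genes, and the lowest adjusted p of a member in limma was 0.0945, for COX5A. At an unadjusted p under 0.05, 0 members passed without the block, where 1.65% of all genes did. With the block 16 did (25.8%), beside 14.3% of all genes. Of the 16, 15 were lower in 5 nm cells and 1, TIMM17A, was higher, and 8.83% and 5.48% of all genes were lower and higher at this limit.

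The differences from control were small and mostly to the lower side. In 5 nm cells 21 members were lower than control in all 3 replicate numbers, which is 33.9% of them beside 13.4% of all genes and the 36.4% of endothelial markers above. A gene exactly equal to control in any number cannot be counted, and exact equality in all 3 was rarer among members, as given next. The 3 that were higher in all 3 numbers (4.84%, beside 8.03% of all genes) were COX7A2L, TIMM17A and TOMM20, and 4 members (ATPAF2, NDUFA6-DT, COX6C and TOMM7) were exactly equal to control in all 3 (6.45%, beside 19% of all genes). The other 34 did not keep one direction. The median difference over members was -0.017 in replicate 1, -0.019 in replicate 2 and -0.022 in replicate 3, while the median over all genes was 0 in each. Within a number, 5 nm and control arrays were equal for 48.3% to 54.3% of all probe sets and 25.8% to 35.5% of members. Such ties pull a median to 0, and how much of the contrast they make up was not tested. Mean differences ran from -0.68 to 0.24, and 0 members were apart from control by over 0.5 in the same direction in all 3 numbers, where 0.148% of all genes were lower and 0.814% higher by that much. As the values are of bulk RNA, a change in part of the cells and a change in every cell cannot be told apart.

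**Figure D1:**
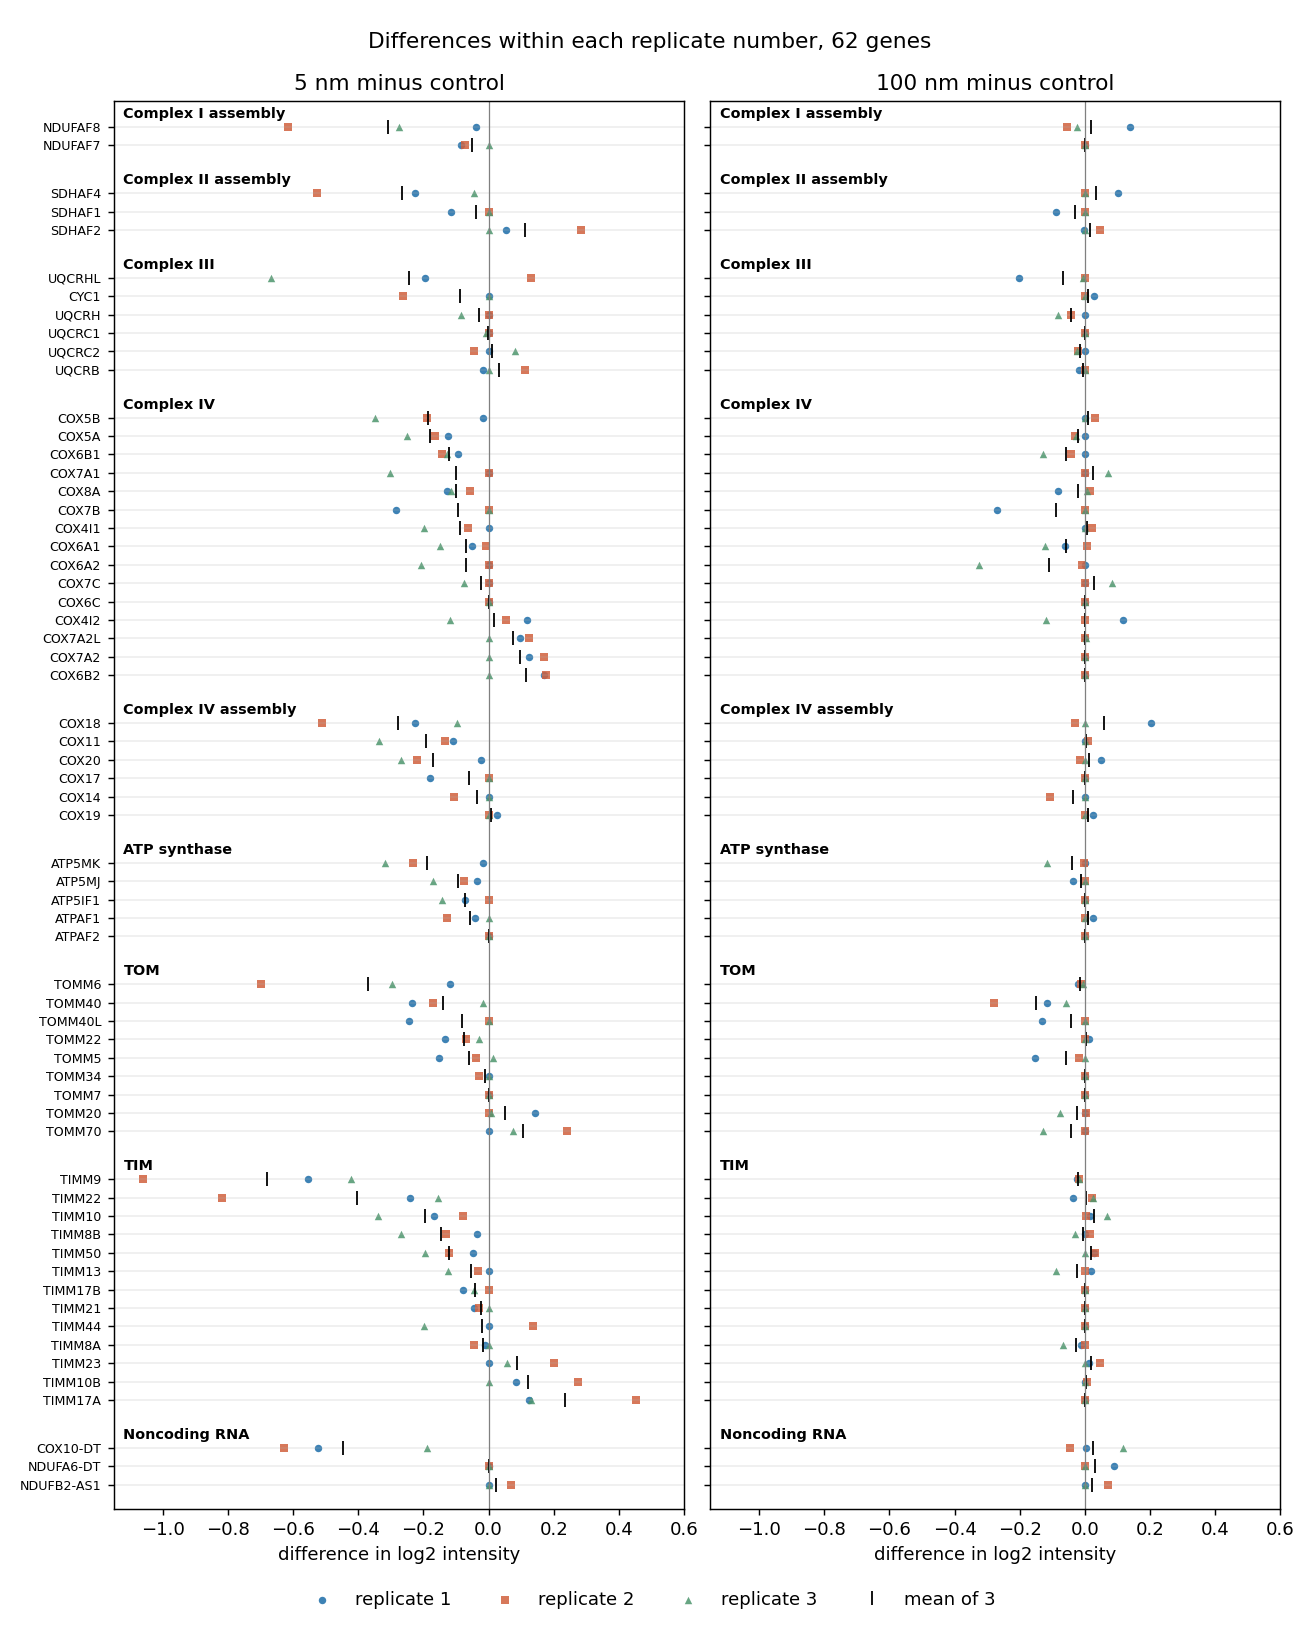
Differences in log2 intensity within each replicate number for the 62 members, by complex or translocase, for 5 nm minus control (left) and 100 nm minus control (right). Coloured points are the 3 replicate numbers and black ticks their mean. In the left panel the lowest mean is that of TIMM9 (-0.68) and the highest that of TIMM17A (0.24), and in the right panel all means lie between -0.15 and 0.06.

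Across the 62 members, the 5 nm minus control differences of replicates 1 and 2 had a Pearson correlation of 0.68. It was 0.36 between replicates 1 and 3 and 0.44 between replicates 2 and 3, against 0.77, 0.65 and 0.62 over all 12155 genes. These are across genes, which are not independent replicates, and the arrays behind each pair are different ones.

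Among the translocases of the inner membrane, the members furthest from control belonged to the route for carrier proteins. TIMM9 forms, with TIMM10, the hexamer that escorts hydrophobic precursors across the intermembrane space. It read 8.67, 7.35 and 7.56 in 5 nm cells of replicates 1, 2 and 3, 9.20, 8.39 and 7.96 in 100 nm cells, and 9.22, 8.41 and 7.98 in control cells. Within each number the 5 nm array was the lowest, while across numbers the groups overlapped. The 5 nm minus control differences were -0.56, -1.06 and -0.42, a mean of -0.68 (0.625 of the control level), with a 95% interval of -1.66 to 0.30 without the block and -1.08 to -0.28 with it. Neither this nor any interval below is adjusted for the number of genes. It was among the 47 of 12155 genes with a mean difference that low or lower. TIMM9 did not pass in limma (adjusted p = 1, and adjusted p = 0.161 with the replicate block, 0.0149 to 1 over 29 alternatives).

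The 300 bases around the start of TIMM9 (GRCh38.p14, chr14:58427482-58427781, minus strand) are printed because it lay furthest from control, with the core of the binding motif of NRF1, a regulator of nuclear genes for mitochondrial proteins, in capitals.
TIMM9: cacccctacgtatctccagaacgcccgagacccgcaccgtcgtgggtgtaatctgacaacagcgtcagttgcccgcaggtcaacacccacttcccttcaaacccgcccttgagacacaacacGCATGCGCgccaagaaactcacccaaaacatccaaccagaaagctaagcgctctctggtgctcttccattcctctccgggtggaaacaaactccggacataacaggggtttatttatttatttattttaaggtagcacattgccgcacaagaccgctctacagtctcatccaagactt

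TIMM22 forms the channel of the carrier translocase. It had levels of 11.47, 10.41 and 10.35 in 5 nm cells, 11.67, 11.26 and 10.53 in 100 nm cells, and 11.71, 11.23 and 10.51 in control cells. The 5 nm differences of -0.24, -0.82 and -0.16 averaged -0.41, so that replicate 2 held most of the mean, and the gene did not pass in limma (adjusted p = 1, and adjusted p = 0.347 with the replicate block, 0.0621 to 1 over 29 alternatives). TIMM10 was lower by 0.17, 0.08 and 0.34, TIMM8B, a small TIM of the intermembrane space, by 0.04, 0.13 and 0.27, and TIMM8A, its paralog, differed by -0.01, -0.04 and 0. TIMM13, the partner of TIMM8A, differed by 0, -0.03 and -0.13. TIMM10B, which anchors the small chaperones to TIMM22, was the exception, with 0.08, 0.27 and 0. Of the 6 small TIM chaperones 3 were lower in all 3 numbers (TIMM9, TIMM10 and TIMM8B) and 0 were higher. Their median mean difference was -0.10, beside 0 over all genes, where exact ties are more common than among members.

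The window of TIMM22 (GRCh38.p14, chr17:996879-997178, plus strand) is printed as that of the other low member of the carrier route. It held none of the 3 motifs searched, which are given below.
TIMM22: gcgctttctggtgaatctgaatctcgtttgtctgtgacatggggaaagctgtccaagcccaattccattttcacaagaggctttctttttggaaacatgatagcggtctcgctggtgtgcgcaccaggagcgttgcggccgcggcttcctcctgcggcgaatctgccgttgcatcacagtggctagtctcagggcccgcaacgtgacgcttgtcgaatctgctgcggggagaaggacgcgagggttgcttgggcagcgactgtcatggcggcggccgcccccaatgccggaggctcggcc

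The presequence route gave values on both sides of control. TIMM17A, a subunit of the TIM23 complex whose protein in human cells is known to be removed under stress, was the member furthest above control in RNA. Protein was not measured here. It read 7.95, 7.21 and 6.97 in 5 nm cells, 7.82, 6.76 and 6.84 in 100 nm cells, and 7.82, 6.76 and 6.84 in control cells. The 100 nm and control arrays were equal in every number and the 5 nm array was the highest of each. The differences of 0.13, 0.45 and 0.13 averaged 0.24, with a 95% interval of -0.63 to 1.10 without the block and 0.01 to 0.46 with it, and did not pass in limma (adjusted p = 1, and adjusted p = 0.331 with the replicate block, 0.00277 to 1 over 29 alternatives). The value of 0.00277 came from leaving out the 5 nm array of replicate 2. Its paralog TIMM17B differed by -0.08, 0 and -0.05. TIMM23, the channel subunit, differed by 0, 0.20 and 0.06. TIMM50, the receptor of this complex, was lower by 0.05, 0.12 and 0.20, and TIMM44, which ties the import motor to the channel, was mixed (0, 0.14 and -0.20). Over the 13 TIMM genes 5 were lower in all 3 numbers and 1 was higher.

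The same window is printed for TIMM17A (GRCh38.p14, chr1:201955253-201955552, plus strand), the member furthest on the other side of control, to set beside those of TIMM9 and TIMM22. It too held none of the 3 motifs searched.
TIMM17A: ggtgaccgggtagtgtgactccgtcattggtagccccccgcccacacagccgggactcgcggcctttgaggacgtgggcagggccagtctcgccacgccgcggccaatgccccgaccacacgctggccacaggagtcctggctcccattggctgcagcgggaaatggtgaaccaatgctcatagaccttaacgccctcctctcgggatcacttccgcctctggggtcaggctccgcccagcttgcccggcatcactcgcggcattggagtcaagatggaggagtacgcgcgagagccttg

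**Figure D2:**
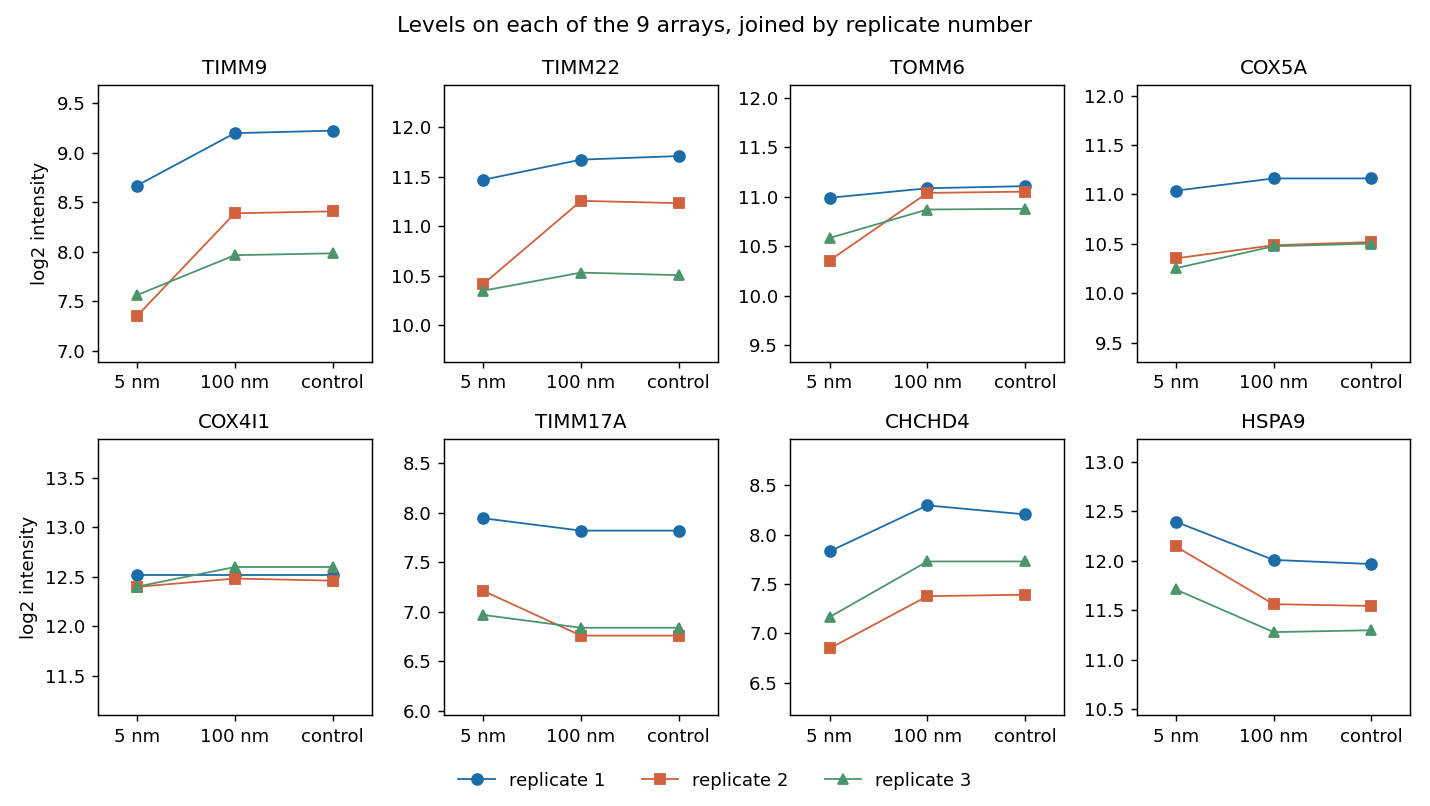
Log2 intensity on each of the 9 arrays for 6 members and for CHCHD4 and HSPA9, with 5 nm, 100 nm and control arrays from left to right and lines joining arrays of 1 replicate number. Each panel spans the same number of log2 units. The 100 nm and control points lie close together within each number, and the 5 nm point is the lowest of each number for TIMM9, TOMM6, COX5A and CHCHD4 and the highest for TIMM17A and HSPA9.

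In the outer membrane, TOMM6, a small subunit that stabilises the TOM complex, was the member furthest below control. Its levels were 10.99, 10.36 and 10.58 in 5 nm cells, 11.09, 11.04 and 10.87 in 100 nm cells, and 11.11, 11.05 and 10.88 in control cells. The 5 nm array was again the lowest of each number, by 0.12, 0.70 and 0.30 below control (mean -0.37, 95% interval -0.85 to 0.11 without the block and -0.72 to -0.02 with it). It did not pass in limma (adjusted p = 1, and adjusted p = 0.337 with the replicate block, 0.0669 to 1 over 29 alternatives). The channel TOMM40 was lower by 0.23, 0.17 and 0.02, its second probe set by 0.01, 0.05 and 0.18, and its paralog TOMM40L differed in replicate 1 alone (-0.25). The receptor TOMM22, which also holds the complex together, was lower by 0.13, 0.07 and 0.03. The receptors TOMM20 (0.14, 0.00 and 0.01) and TOMM70 (0, 0.24 and 0.07) lay at or above control. Of the 9 TOMM genes 3 were lower in all 3 numbers (TOMM6, TOMM40 and TOMM22) and 1 was higher.

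TOMM6 is shown (GRCh38.p14, chr6:41787444-41787743, plus strand) as the outer membrane member furthest from control, with the ETS motif that GABP is known to bind in capitals.
TOMM6: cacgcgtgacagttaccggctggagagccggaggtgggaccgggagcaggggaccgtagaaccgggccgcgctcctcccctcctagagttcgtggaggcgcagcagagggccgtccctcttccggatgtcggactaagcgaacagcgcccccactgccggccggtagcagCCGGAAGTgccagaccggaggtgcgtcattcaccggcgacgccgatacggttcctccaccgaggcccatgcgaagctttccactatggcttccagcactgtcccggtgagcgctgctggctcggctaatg

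The motifs searched, on both strands, were the NRF1 core GCATGCGC, the ETS motif CCGGAAGT and the YY1 motif AAGATGGCG, 1 start per gene. RefSeq promoters (GRCh38.p14, 250 bases before to 50 after the start) matched 53 of the 62 members. NRF1 letters were in 9 of them (17%), beside 3.27% of all 27305 promoters. ETS letters were in 12 (22.6%), beside 4.44% of all, and YY1 letters in 6 (11.3%), beside 1.85% of all. Among promoters of the tested genes the shares were 4.99%, 7.27% and 3.27%. Any of the 3 was in 21 member promoters (39.6%), against 14.4% of those of tested genes. It was in 10 of the 19 promoters of members lower in all 3 numbers and in 11 of the 34 other promoters. That split uses the same differences described above, and a link between motif and direction was not tested. TIMM10B and SDHAF2, both above control in replicates 1 and 2, held NRF1 and ETS letters. Of 32 matches, 1 pair of different motifs overlapped. A match is a description of these letters, not of binding.

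Complex IV, which reduces oxygen, was the best covered complex. COX5A, a subunit that wraps the matrix side of the catalytic core, read 11.04, 10.35 and 10.25 in 5 nm cells, 11.16, 10.49 and 10.48 in 100 nm cells, and 11.16, 10.52 and 10.50 in control cells. The 5 nm array was the lowest of each number. The differences of -0.12, -0.16 and -0.25 averaged -0.18, with a 95% interval of -0.85 to 0.49 without the block. With the block the 95% interval was -0.25 to -0.11, and the p in that fit was the lowest among members, but the gene did not pass in limma (adjusted p = 1, and adjusted p = 0.0945 with the replicate block, 0.0305 to 1 over 29 alternatives).

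The other nuclear subunits of complex IV lay nearer to control or differed less evenly. COX6B1, on the intermembrane space side, was lower by 0.10, 0.14 and 0.13, and COX8A, a single-helix subunit, by 0.13, 0.06 and 0.11. COX5B, the zinc-binding subunit, was lower by 0.02, 0.19 and 0.35. COX4I1, the common form of the regulatory subunit, differed by 0, -0.06 and -0.20, and its lung isoform COX4I2 by 0.12, 0.05 and -0.12. In the COX6A pair, COX6A1 was lower by 0.05, 0.01 and 0.15 and the muscle form COX6A2 differed in replicate 3 alone (-0.21). The second probe set of COX6A1 ran the other way, with 0.45, 0.84 and 0, so the direction of that gene differs with the probe set. It averaged 5.84 in 5 nm and 5.41 in control cells, against 12.88 and 12.95 for the first. Counts of lower members use the first, and which of them reads COX6A1 was not tested. COX7A2 was higher by 0.12 and 0.17 in replicates 1 and 2 and equal to control in replicate 3. COX7A1, its muscle form, was below control in replicate 3 alone (-0.30), on an array under the limit of 5. COX7A2L, which joins complexes III and IV into supercomplexes, was higher by 0.10, 0.12 and 0.00. COX6B2, the form known from testis, had the highest mean of this class (0.17, 0.18 and 0). In all, 5 of 15 subunits were lower in all 3 numbers and 1 was higher.

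Assembly factors of complex IV had the lowest class median among the classes of at least 5 genes (-0.12). COX18, which inserts the tail of the mitochondrially encoded COX2, read 8.82, 7.99 and 8.23 in 5 nm cells, 9.25, 8.47 and 8.33 in 100 nm cells, and 9.05, 8.50 and 8.33 in control cells. The 5 nm differences of -0.23, -0.51 and -0.10 averaged -0.28. COX11, a copper-insertion factor, was lower by 0.11, 0.13 and 0.34, and COX20, a COX2 chaperone, by 0.02, 0.22 and 0.27. The copper chaperone COX17 (-0.18, 0 and 0), COX14 (0, -0.11 and 0), an early COX1 assembly factor, and COX19 (0.02, 0 and 0), a copper-handling factor, differed in 1 number each. So 3 of 6 were lower in all 3 numbers and 0 were higher.

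**Figure D3:**
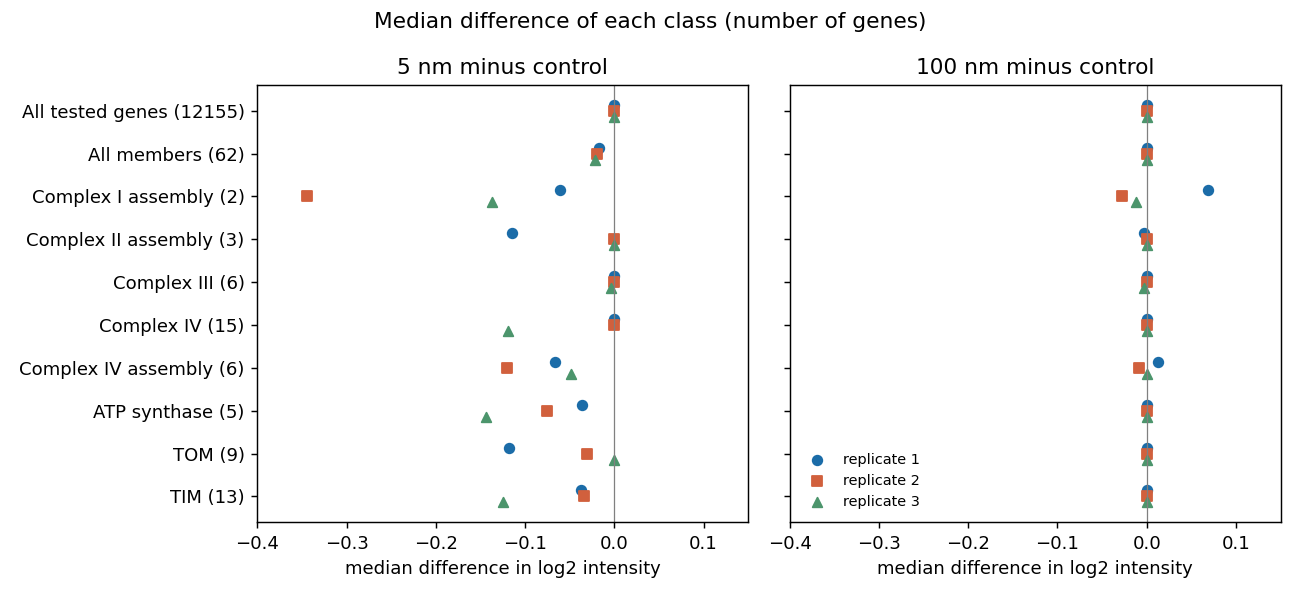
Median difference in log2 intensity of each class within each replicate number, for 5 nm minus control (left) and 100 nm minus control (right), with all members and all 12155 tested genes at the top and the number of genes in brackets. In the left panel the median over all genes is 0 in each number, where exact ties are common. Complex III lies at or near 0. All members, complex I assembly, complex IV assembly, ATP synthase and TIM lie below 0 in all 3 numbers.

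Complex III, which passes electrons to cytochrome c, lay close to control. Of its 6 genes 0 were lower and 0 higher in all 3 numbers, and the class median was -0.02. The core protein UQCRC2 differed by 0, -0.05 and 0.08, its partner UQCRC1 by 0, 0 and -0.01, and cytochrome c1 (CYC1) by 0, -0.26 and 0. UQCRB, a small subunit near a ubiquinone site, differed by -0.02, 0.11 and 0. UQCRHL had the widest spread (-0.19, 0.13 and -0.67), and since it is nearly identical to UQCRH (0, 0 and -0.08), which of these genes its probes read is uncertain.

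Of complex I and complex II only assembly factors were measured. NDUFAF8, a partner of the assembly factor NDUFAF5, was lower by 0.04, 0.62 and 0.27, with a mean of -0.31. The 95% interval was -0.87 to 0.25 without the block and -0.62 to 0.0018 with it. NDUFAF7, which methylates a core subunit of complex I, differed by -0.08, -0.07 and 0. SDHAF4, which binds the flavinated succinate dehydrogenase subunit, was lower by 0.23, 0.53 and 0.04 (mean -0.27), SDHAF2, which helps to attach the flavin, was at 0.05, 0.28 and 0, and SDHAF1, an iron-sulfur assembly factor, at -0.11, 0 and 0. None of these genes passed in limma with or without the replicate block, where the lowest adjusted p of the complex I pair was 0.346 and that of the complex II trio was 0.349, both with the block.

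The ATP synthase genes were 2 small accessory subunits, the inhibitor and the F1 assembly factors. The accessory subunit ATP5MK read 7.44, 7.32 and 7.61 in 5 nm cells, 7.46, 7.54 and 7.81 in 100 nm cells, and 7.46, 7.55 and 7.92 in control cells. Its 5 nm differences were -0.02, -0.23 and -0.32. ATP5MJ, the other one, was lower by 0.04, 0.08 and 0.17. The inhibitor ATP5IF1, which blocks ATP hydrolysis when the gradient fails, differed by -0.07, 0 and -0.14. ATPAF1, which chaperones the beta subunit, differed by -0.04, -0.13 and 0, and ATPAF2, which chaperones the alpha subunit, by 0 in all 3. Thus 2 of 5 were lower in all 3 numbers and 0 were higher.

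Of the noncoding RNAs, COX10-DT, a divergent transcript next to COX10, read 8.08, 7.22 and 7.51 in 5 nm cells, 8.60, 7.80 and 7.81 in 100 nm cells, and 8.60, 7.84 and 7.70 in control cells. The 5 nm array was the lowest of each number, by 0.52, 0.63 and 0.19 below control (mean -0.45), and the gene did not pass in limma (adjusted p = 1, and adjusted p = 0.143 with the replicate block, 0.0129 to 1 over 29 alternatives). NDUFB2-AS1 was higher in replicate 2 alone (0.07) and NDUFA6-DT was equal to control, though its second probe set was higher in replicate 2 (0.61). None of the 3 is a component of the chain.

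Silver of 100 nm left these genes nearer to control. No member passed in limma with Benjamini-Hochberg adjustment, without or with the replicate block (lowest adjusted p = 1 in both), as was so for all genes (0%). At an unadjusted p under 0.05, 0 members passed either way, beside 0% of all genes without the block and 0.271% with it. The members lower than control in all 3 numbers were TIMM9, TOMM6 and TOMM40 (3, or 4.84%, beside 1.41% of all genes), TIMM10 was the 1 higher in all 3 (1.61%, beside 1.25%), and 14 were exactly equal to control in all 3 (22.6%, beside 30.3%). The median difference was 0. TOMM40 had the lowest mean difference (-0.12, -0.28 and -0.06, mean -0.15, 95% interval -0.56 to 0.26 without the block) and COX18 the highest (0.20, -0.03 and 0, mean 0.06). The second probe set of TOMM40 lay on the other side of control, with 0, 0.08 and 0 (mean 0.03), so the lowest member for 100 nm differs with the probe set. TOMM40 was lower than control by a mean of 0.14 in 5 nm cells, and the 5 nm minus 100 nm difference was 0.01, against -0.11 by the second probe set. TIMM9 and TOMM6 differed from control by at most 0.03 in any number.

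Set directly against 100 nm cells, 5 nm cells had 0 of 62 members past the threshold in limma without the block (0.0658% of all genes) and 0 with it (0.617% of all genes; lowest adjusted p = 0.113). At an unadjusted p under 0.05, 0 passed without the block, beside 1.7% of all genes, and 15 with it (24.2%), 14 lower beside 8.59% of all genes and 1 higher beside 5.71%. In all 3 numbers 18 members were lower in 5 nm cells (29.0%, beside 13% of all genes) and 1, TIMM17A, was higher (1.61%, beside 8.04%). Exact equality in all 3 held for 9.68% of members and 17.4% of all genes, and an equal gene cannot be counted in these shares. By over 0.5 in all 3 numbers 0 members differed, where 0.132% of all genes were lower and 0.806% higher. TIMM9 was lower by 0.53, 1.04 and 0.40. Over the 3 groups together, the F-test of limma gave 0 members past the threshold without the block (0.0576% of all genes) and 0 with it (0.296% of all genes; lowest adjusted p = 0.149, 10 members at an unadjusted p under 0.05). This comparison and that with control share the 5 nm arrays.

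Outside the naming rule, 106 of 172 listed genes of related mitochondrial functions, glycolysis and cell markers were tested, and among these lists the import and chaperone one held the calls. It had 12 tested genes of 20. CHCHD4, the oxidoreductase that folds the small TIM chaperones and COX17 in the intermembrane space, read 7.83, 6.85 and 7.16 in 5 nm cells, 8.29, 7.38 and 7.73 in 100 nm cells, and 8.20, 7.39 and 7.73 in control cells. It was lower by 0.37, 0.54 and 0.56 (mean -0.49) and passed in limma with the replicate block only (adjusted p = 0.0336, against adjusted p = 1 without it, 0.00233 to 1 over 29 alternatives). The 5 nm arrays also lay below the 100 nm ones by 0.46, 0.53 and 0.56, a difference that passed in limma once the block was fitted (adjusted p = 0.0371) and not otherwise (adjusted p = 1). HSPA9 (mortalin), the Hsp70 of the import motor, read 12.39, 12.14 and 11.71 in 5 nm cells, 12.01, 11.56 and 11.28 in 100 nm cells, and 11.97, 11.54 and 11.30 in control cells. It was higher by 0.43, 0.60 and 0.41 (mean 0.48) and passed in limma with the block only (adjusted p = 0.0468, against adjusted p = 1 without it, 0.00233 to 1 over 29 alternatives). Against 100 nm cells its adjusted p in limma was 1 without the block and 0.0516 with it. Both calls were lost in most fits that left out 1 array. With the block in limma, 7 of these 9 fits lost the call of CHCHD4 (all but those without the 5 nm arrays of replicates 1 and 3, highest adjusted p = 0.226) and 7 lost that of HSPA9 (all but those without the 5 nm arrays of replicates 2 and 3, highest adjusted p = 0.26). With the block fitted to the 5 nm and control arrays alone, neither passed in limma (adjusted p = 0.548 for each).

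**Figure D4:**
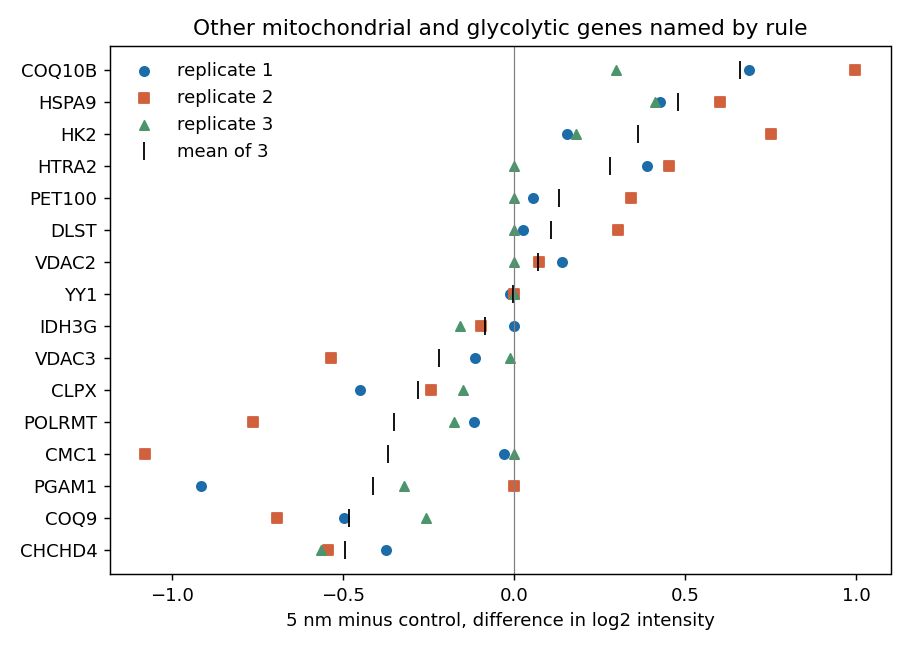
Difference in log2 intensity, 5 nm minus control, of 16 genes of related functions chosen by rule. Coloured points are the 3 replicate numbers and black ticks their mean. CHCHD4 (mean -0.49) and HSPA9 (mean 0.48) keep their side of control in all 3 numbers with little spread, while the mean of CMC1 (-0.37) rests on replicate 2.

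In the other lists 0 genes passed against control in limma without or with the replicate block. In the ubiquinone and electron carrier list 5 of 10 genes were lower in all 3 numbers. COQ9, which binds ubiquinone precursors, was lower by 0.50, 0.69 and 0.26, and COQ10B, a ubiquinone-binding protein, was higher by 0.69, 1.00 and 0.30. Of 25 assembly factors outside the rule 6 were lower in all 3 numbers and 0 were higher, with CMC1, a COX1 assembly factor, lower by 1.08 in replicate 2 but by at most 0.03 in the other numbers, and PET100, a complex IV assembly factor, at 0.06, 0.34 and 0. The mitochondrial RNA polymerase POLRMT was lower by 0.12, 0.76 and 0.17. The protease subunit CLPX was lower by 0.45, 0.24 and 0.15, and the protease HTRA2 was higher by 0.39 and 0.45 in replicates 1 and 2 and equal in replicate 3. The 10 genes of the tricarboxylic acid cycle had a median of -0.02, with means from -0.08 for IDH3G, a regulatory subunit of isocitrate dehydrogenase, to 0.11 for DLST, of the oxoglutarate dehydrogenase complex. Of 9 glycolytic genes 1 was lower and 2 were higher in all 3 numbers, with hexokinase HK2 higher by 0.16, 0.75 and 0.18. The mutase PGAM1 lay further from control in mean, at -0.92, 0 and -0.32 (mean -0.41). Among mitochondrial carriers, channels and antioxidants, the outer membrane channel VDAC3 was lower by 0.11, 0.53 and 0.01, and VDAC2 differed by 0.14, 0.07 and 0.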

How the data were processed

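The authors deposited log2 intensities of 53617 probe sets on 9 arrays, which the submitters' processing notes credit to RMA run in Expression Console 1.3.1 (Affymetrix). No scanner files were used here. The platform annotation gave 1 symbol to 16098 probe sets and none to 37519 (70.0%). Same-numbered arrays paired: their deviations from group means correlated at 0.762 to 0.967 (9 pairs), against -0.582 to -0.265 for different numbers (18 pairs), and 46.9% to 57.6% of probe sets were equal between them, against at most 0.00373%. Differences were fitted with limma 3.58.1 in R 4.3.3 over all 12155 genes and all 9 arrays, without a block (6 residual degrees of freedom) or with the replicate number as a block (4), with Benjamini-Hochberg adjustment over all genes and a threshold of 0.05. The fit was tested on simulated data with normal noise. Those data lack the exactly equal values above, so the test does not cover the block under such ties. Intervals are those of the fit without the block unless stated. Alternatives were other scalings, filters, probe-set rules, variance priors, block forms and arrays left out. The number of arrays limits the precision. Members and lists were chosen with earlier results of these data known. Genes were named by rule: those past the threshold, the extremes of each class or list for 5 nm minus control, fixed markers such as UQCRC2 and CYC1, isoform pairs, and members apart from control by over 0.5 in all 3 numbers. Others, TIMM22, TIMM10, TIMM50, COX5A, COX11, TOMM22, KDR and the KRT7 and KRT8 markers among them, were chosen after their values were seen.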

Additional observations from a re-analysis of the deposited data

Results flagged for a closer look

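TIMM10 was the 1 member whose 5 nm and 100 nm arrays lay on opposite sides of control in every replicate number. The 5 nm minus control differences were -0.17, -0.08 and -0.34 on the log2 scale, and the 100 nm minus control differences were 0.02, 0.00 and 0.07. The 5 nm minus 100 nm difference averaged -0.22. In limma with Benjamini-Hochberg adjustment over all genes that difference did not pass (adjusted p = 1, and adjusted p = 0.265 with the replicate block, 0.0966 to 1 over 29 alternatives). Groups of 3 arrays are too small for a test of single outlying arrays.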

How the results depend on the processing

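With the replicate number as a replicate block, 0 of 62 members passed in each comparison, as without it, and the block changed no call of a member. Of the alternatives, a random replicate block gave 3 members for 5 nm minus control (COX10-DT, COX5A and TIMM9), 3 for 5 nm minus 100 nm (COX10-DT, COX18 and TIMM9) and 2 in the F-test (COX10-DT and TIMM9). Quantile normalization with the block, chosen after seeing the data, gave 1 (COX5A) in both 5 nm comparisons. With the block and 1 array left out, counts ran from 0 to 7 for 5 nm minus control, 0 to 7 for 5 nm minus 100 nm and 0 to 3 in the F-test. Without the 5 nm array of replicate 2 TIMM17A and TIMM9 passed, and without that of replicate 3 COX10-DT, COX11, COX5A, COX6B2, COX7A2, COX7A2L and NDUFAF7 did. The causes were not tested. The median member difference, 5 nm minus control, was -0.075 with arrays centred, -0.061 after quantile normalization, -0.052 with no filter, -0.055 with probe sets averaged and -0.066 to -0.036 with a replicate number left out, against -0.057. For 100 nm minus control it was 0.00382 and 0.00518 under the centred and quantile scalings, and for 5 nm minus 100 nm -0.051 and -0.041, with -0.036 to -0.018 when a number was left out, against -0.030. Under the centred and quantile scalings COX19 turned to -0.00945 and -0.00534 and UQCRC2 to -0.00635 and -0.0431, COX4I2 turned to -0.000497 when centred and YY1 to 0.00772 after quantile normalization. COX6A1 turned to 0.18 with probe sets averaged. Without the block, leaving out 1 of the 9 arrays turned the 5 nm minus control difference of these genes in at least 1 case, with ranges of -0.31 to 0.17 for ATP5IF1, -0.58 to 0.023 for CMC1, -0.46 to 0.048 for COX11, -0.34 to 0.28 for COX17, -0.23 to 0.24 for COX19, -0.13 to 0.14 for COX4I2, -0.42 to 0.037 for COX5A and -0.47 to 0.081 for COX5B. The ranges were -0.25 to 0.10 for COX6A1, -0.26 to 0.10 for COX6A2, -0.49 to 0.23 for COX6B1, -0.024 to 0.22 for COX6B2, -0.28 to 0.031 for COX7A1, -0.39 to 0.57 for COX7A2, -0.13 to 0.26 for COX7A2L and -0.29 to 0.11 for COX8A. They were -0.40 to 0.18 for CYC1, -0.0095 to 0.28 for DLST, -0.058 to 0.68 for HTRA2, -0.36 to 0.15 for IDH3G, -0.40 to 0.31 for NDUFAF7, -0.12 to 0.18 for NDUFB2-AS1, -0.58 to 0.024 for SDHAF4 and -0.56 to 0.15 for TIMM10. Further ranges were -0.0897 to 0.35 for TIMM10B, -0.36 to 0.22 for TIMM13, -0.0495 to 0.58 for TIMM17A, -0.17 to 0.0902 for TIMM17B, -0.13 to 0.35 for TIMM23, -0.38 to 0.18 for TIMM50, -0.21 to 0.16 for TIMM8A and -0.46 to 0.12 for TIMM8B. Others were -0.48 to 0.53 for TOMM20, -0.28 to 0.15 for TOMM22, -0.30 to 0.21 for TOMM40L, -0.081 to 0.34 for TOMM70, -0.26 to 0.35 for UQCRB, -0.18 to 0.18 for UQCRC2, -0.68 to 0.19 for UQCRHL and -0.043 to 0.18 for VDAC2. The last were -0.55 to 0.059 for VDAC3 and -0.21 to 0.20 for YY1. With the replicate block, such ranges were -0.037 to 0.081 for COX4I2, -0.11 to 0.019 for COX6A2, -0.16 to 0.012 for COX7A1, -0.038 to 0.000614 for TIMM8A, -0.00730 to 0.052 for UQCRB and -0.025 to 0.039 for UQCRC2. These ranges hold the offsets between replicate numbers, since a left-out array unbalances them. Named genes moved past the threshold in 11 cases with an array left out and in 14 under other settings. CHCHD4 and HSPA9 lost their call with the block in 7 cases each with an array left out.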
